A study of Mus musculus with 2 samples.

Results

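The genes described here receive the Hedgehog (Hh) signal and carry it to the nucleus. The 9 genes (*Ptch1*, *Gli1*, *Smo*, *Sufu*, *Gli2*, *Gli3*, *Boc*, *Cdon* and *Gas1*) were taken by symbol from a table of 21628 gene entries, in which each has 1 entry with a number in both populations. They were sorted by role into 2 genes whose transcription is itself a response to Hh (*Ptch1* and *Gli1*) and 7 genes of reception and transduction. The samples were 2 RNAseq libraries from P0 mouse lingual epithelium carrying the *Sox2GFP* reporter allele, 1 of cells with high SOX2-GFP signal (GFPhigh) and 1 of cells with low signal (GFPlow). Both were sorted from dissociated cells of newborn pups of several litters, and whether these formed 1 pool is not given in the sources used here. The brightness varied without a break, and the sort gates set the limits of each population. Both carry the reporter allele, whose zygosity is not given in the sources used here, and neither received an agent. Cells without GFP were not analysed here. Because there is 1 library per population, no value has a replicate error, no test was run and no p-value is given. All levels are FPKM (fragments counted per kilobase of transcript and corrected for library size), which are per length and can be compared between genes. Each difference is the ratio of the FPKM of the populations.

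In the absence of ligand, Patched 1, the membrane receptor encoded by *Ptch1*, keeps the transducer Smoothened inactive, and Gli2 and Gli3 are held back by Sufu or cut into repressors. Binding of SHH to Patched 1 and to its co-receptors BOC, CDON and GAS1 relieves this block, and activated Gli proteins then turn on *Gli1* and *Ptch1*, whose mRNA is the usual readout of a responding cell. In the tongue, SHH is made by taste placodes and taste bud cells and is received by neighboring epithelium and by the connective tissue below.

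The 3 Gli factors share a zinc finger domain that binds DNA and differ in use, with Gli1 acting as an activator and Gli2 and Gli3 as activators or repressors. Since the results turn on telling these mRNAs apart, the stretch of 60 coding bases in which they are most alike is shown, as read from the GENCODE M21 transcripts (GRCm38, the build also called mm10). It overlaps 1 of 5 zinc finger patterns in each protein and lies within 1 exon of *Gli1* (chr10:127335972-127336031, minus strand), *Gli2* (chr1:118845926-118845985, minus strand) and *Gli3* (chr13:15713580-15713639, plus strand). Capitals mark bases that differ from *Gli2*.
Gli1: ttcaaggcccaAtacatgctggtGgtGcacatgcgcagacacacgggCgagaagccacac
Gli2: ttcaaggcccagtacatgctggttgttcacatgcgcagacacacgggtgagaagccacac
Gli3: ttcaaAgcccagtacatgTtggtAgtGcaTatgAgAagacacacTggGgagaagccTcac
Even here *Gli1* differed from *Gli2* at 4 bases and *Gli3* at 10. Over whole transcripts the longest identical run was 23 bases for *Gli1* and *Gli2*, 14 for *Gli1* and *Gli3*, and 25 for *Gli2* and *Gli3*, shorter than the reads of 50 nt. No 50-nt window of 1 Gli mRNA occurred in another.

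*Ptch1* and *Gli1* were higher in GFPhigh cells, and none of the 7 transduction genes passed the same threshold in either direction. *Ptch1* (ENSMUSG00000021466, chromosome 13, 63508328 to 63573598, minus strand) had an FPKM of 113 in GFPhigh cells and 38.4 in GFPlow cells, a 2.93-fold difference. *Gli1* (ENSMUSG00000025407, chromosome 10, 127329882 to 127341974, minus strand) had an FPKM of 53.5 and 13.6, a 3.92-fold difference. A gene was called enriched at 5 FPKM or more in the higher population and a ratio of 1.5 or more. This is 1 reading of the study's threshold, since its methods ask for the minimum in each sample. By this rule 2 of the 9 genes were called higher in GFPhigh cells, against 9.48% of the 10760 entries with at least 5 FPKM in either library, and 0 of 9 were called higher in GFPlow cells, against 8.90% (18.4% for either direction). Each of the 9 genes reached 5 FPKM in both libraries, so the same 2 were called with the minimum asked of both, against 7.76% of entries higher in GFPhigh and 6.32% higher in GFPlow cells. In bulk RNA, fewer cells of a type and less RNA per cell cannot be told apart. Of all these entries, 103 had a larger GFPhigh to GFPlow ratio than *Gli1* and 175 a larger ratio than *Ptch1*.

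**Figure D1:**
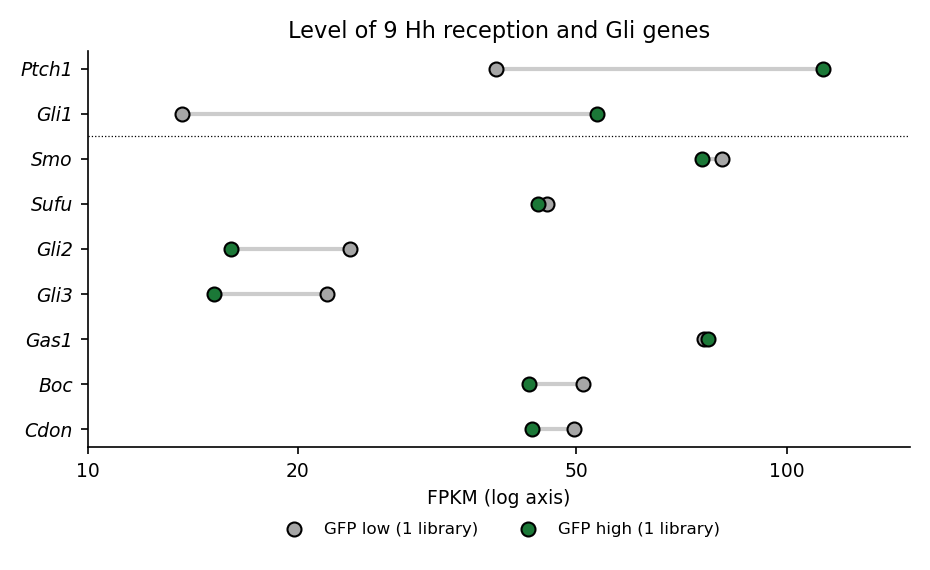
FPKM of the 9 genes on a log axis, with 1 point per library (green, GFPhigh cells; grey, GFPlow cells) and a line joining the points of a gene; the dotted line separates the target genes *Ptch1* and *Gli1* from the transduction genes. *Ptch1* and *Gli1* are the genes with widely spaced points, at 113 and 38.4 FPKM and at 53.5 and 13.6 FPKM, and *Smo*, *Sufu* and *Gas1* nearly coincide.

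The central transducers stood at almost the same level in the populations. *Smo* (ENSMUSG00000001761, chromosome 6, 29735503 to 29761365, plus strand), which encodes Smoothened, had an FPKM of 75.7 in GFPhigh cells and 80.9 in GFPlow cells, a difference of 1.07-fold. *Sufu* (ENSMUSG00000025231, chromosome 19, 46396896 to 46488804, plus strand), which encodes the protein that retains Gli factors in the cytoplasm, had an FPKM of 44.0 and 45.4. The ratio of *Sufu* to *Smo* was therefore alike in the libraries, at 0.582 in GFPhigh and 0.561 in GFPlow cells.

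*Gli2* and *Gli3* were nearest to the threshold, on the GFPlow side. *Gli2* (ENSMUSG00000048402, chromosome 1, 118834132 to 119053619, minus strand) had an FPKM of 16.0 in GFPhigh cells and 23.7 in GFPlow cells, 1.48-fold higher in the latter. *Gli3* (ENSMUSG00000021318, chromosome 13, 15463235 to 15730026, plus strand) had an FPKM of 15.2 and 22.0, a difference of 1.45-fold. The ratio of *Gli2* to *Gli3* was 1.06 in GFPhigh and 1.08 in GFPlow cells. Of the entries compared, 9.23% had a lower log2 ratio than *Gli2* and 9.96% a lower one than *Gli3*. The summed FPKM of 11 fibroblast markers, 9 of them higher in GFPlow and 2 in GFPhigh cells, lay in the same direction, 4.69-fold higher in GFPlow cells. That of 5 Schwann cell markers was 3.75-fold higher in GFPlow cells. That of 9 epithelial markers, 7 of them higher in GFPlow and 2 in GFPhigh cells, was 1.27-fold higher in GFPlow cells. The part of any of these cell types in the *Gli2* and *Gli3* levels was not tested.

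The co-receptors were expressed in both populations at levels close to those of *Smo* and *Sufu*. *Gas1* (ENSMUSG00000052957, chromosome 13, 60174405 to 60177365, minus strand), a membrane-anchored protein that binds SHH, had an FPKM of 77.1 in GFPhigh cells and 76.2 in GFPlow cells. *Boc* (ENSMUSG00000022687, chromosome 16, 44485049 to 44558897, minus strand) and *Cdon* (ENSMUSG00000038119, chromosome 9, 35421128 to 35507652, plus strand) encode related immunoglobulin superfamily proteins. *Boc* had an FPKM of 42.9 and 51.2, 1.19-fold higher in GFPlow cells, and *Cdon* had an FPKM of 43.2 and 49.7, 1.15-fold higher in GFPlow cells. Summed over the 3 co-receptors, the FPKM was 163 in GFPhigh and 177 in GFPlow cells. Within that sum *Gas1* held 47.2% and 43.1%, *Boc* 26.3% and 28.9%, and *Cdon* 26.5% and 28.0%. The *Gas1* level carries a limit of its own, since 17.0% of the 50-nt windows of its transcripts also occur on the opposite strand in the transcript *Gm48488*, and whether reads were counted by strand is not given in the sources used here. For the other 8 genes this share was at most 4.51%.

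Set against each other, the groups did not overlap. The log2 ratio of GFPhigh to GFPlow FPKM was 1.55 for *Ptch1* and 1.97 for *Gli1*, with a median of 1.76, and lay between −0.57 and 0.02 for the 7 transduction genes, with a median of −0.20. The difference of these medians was 1.96, and the gap between *Ptch1* and the highest transduction gene, *Gas1*, was 1.54. The median over the 9 genes was −0.10, beside −0.04 over all entries at 5 FPKM or more.

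**Figure D2:**
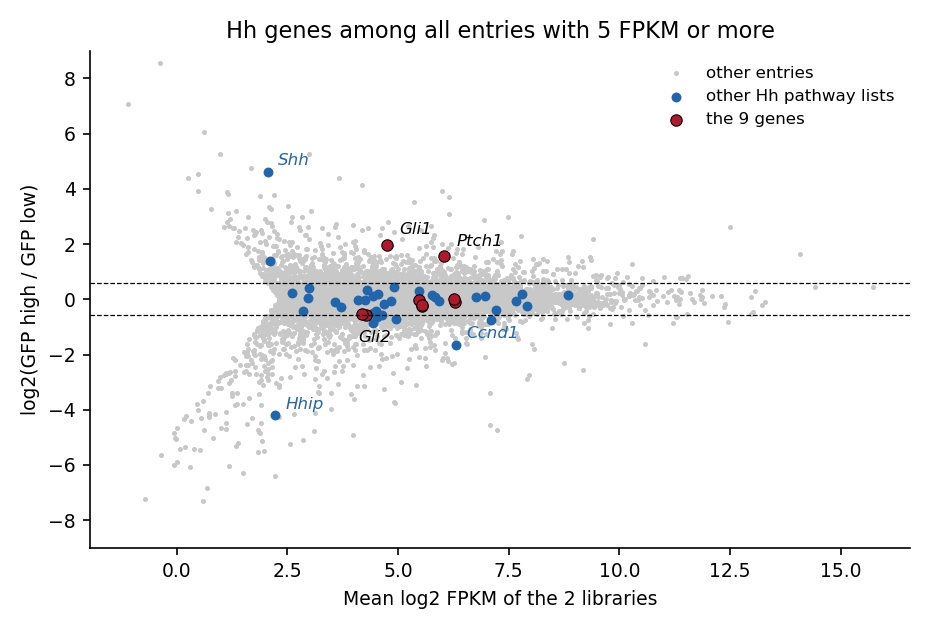
Log2 ratio of GFPhigh to GFPlow FPKM against the mean log2 FPKM of the libraries for entries with at least 5 FPKM in either library (grey), with genes of the other Hh lists in blue and the 9 genes in red; dashed lines mark 1.5-fold, and 2 entries listed at 0 in 1 library are not drawn. *Gli1* (1.97) and *Ptch1* (1.55) lie above the upper line, and the other 7 red points lie between the lines.

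Directions of the transduction genes depended on how the libraries were scaled. The summed FPKM was 1071442 in the GFPhigh and 999614 in the GFPlow library, so dividing each library by its own sum (TPM) shifts every log2 ratio by −0.10. On this scale *Gli2* and *Gli3* passed the threshold, 1.59-fold and 1.55-fold higher in GFPlow cells, and *Gas1* changed sign to −0.08. Then 2 of 9 genes were called in each direction, against 7.54% of entries higher in GFPhigh and 11.4% higher in GFPlow cells. GFPhigh entries made up 51.6% of all calls as deposited and 39.8% on the TPM scale. Next, the GFPlow library was instead scaled by the median GFPhigh to GFPlow ratio of 9 epithelial markers. Every log2 ratio as deposited then rose by 0.37. *Smo* (0.27), *Sufu* (0.33), *Boc* (0.11) and *Cdon* (0.17) became higher in GFPhigh cells. *Gli2* (−0.20) and *Gli3* (−0.16) remained lower without passing the threshold. On that scale the calls were again *Ptch1* and *Gli1*, now against 24.0% of entries called higher in GFPhigh and 4.05% in GFPlow cells, with GFPhigh entries making up 85.6% of calls. *Ptch1* and *Gli1* were called higher in GFPhigh cells on every scale used, with log2 ratios of 1.45 to 1.92 and 1.87 to 2.34.

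**Figure D3:**
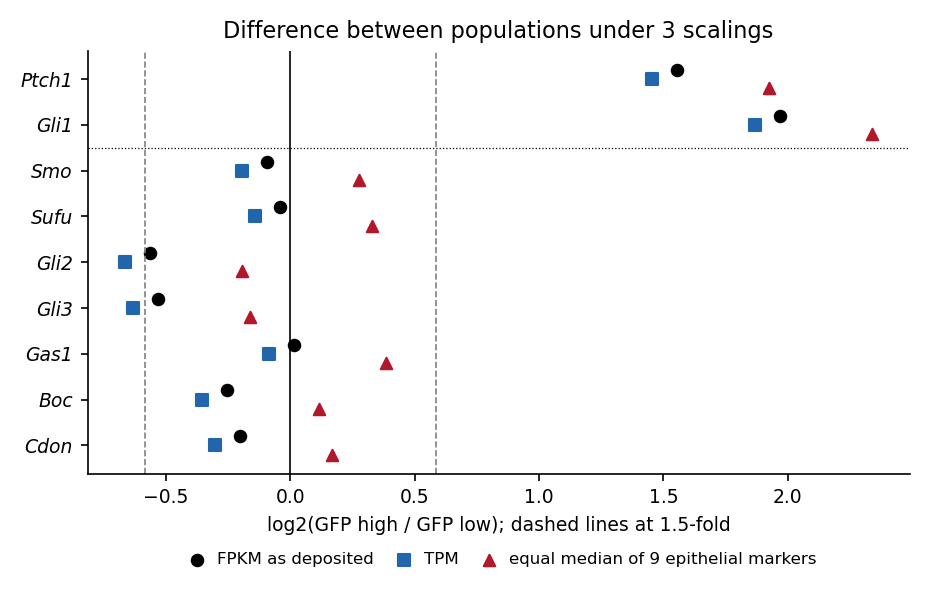
Log2 ratio of GFPhigh to GFPlow level for each gene under 3 scalings, with dashed lines at 1.5-fold. Circles are FPKM as deposited and squares are TPM. Triangles are GFPlow scaled by the median ratio of 9 epithelial markers, named equal median in the legend. *Ptch1* and *Gli1* stay to the right of the upper line, *Gli2* and *Gli3* cross the lower line only as TPM, and *Smo*, *Sufu*, *Gas1*, *Boc* and *Cdon* move across 0.

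Ratios between genes within a library do not depend on that scaling. In GFPhigh cells *Ptch1* was above *Smo*, at a ratio of 1.49, and in GFPlow cells below it, at 0.474. The ratio of *Gli1* to *Gli2* was 3.34 in GFPhigh and 0.575 in GFPlow cells, and that of *Gli1* to *Gli3* was 3.52 and 0.621. *Gli1* thus ranked first among the Gli factors in GFPhigh cells and last in GFPlow cells. The summed FPKM of the 3 factors was 84.7 in GFPhigh and 59.3 in GFPlow cells. *Gli1* made up 63.2% of it in GFPhigh cells and 23.0% in GFPlow cells, *Gli2* 18.9% and 40.0%, and *Gli3* 17.9% and 37.0%. The ratio of *Gli1* to *Gli2* and *Gli3* together was 1.71 and 0.299, a 5.74-fold difference between the libraries that is larger than the fold of *Gli1* alone. The ratio of *Ptch1* to *Gli1* changed less, from 2.11 in GFPhigh to 2.81 in GFPlow cells.

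**Figure D4:**
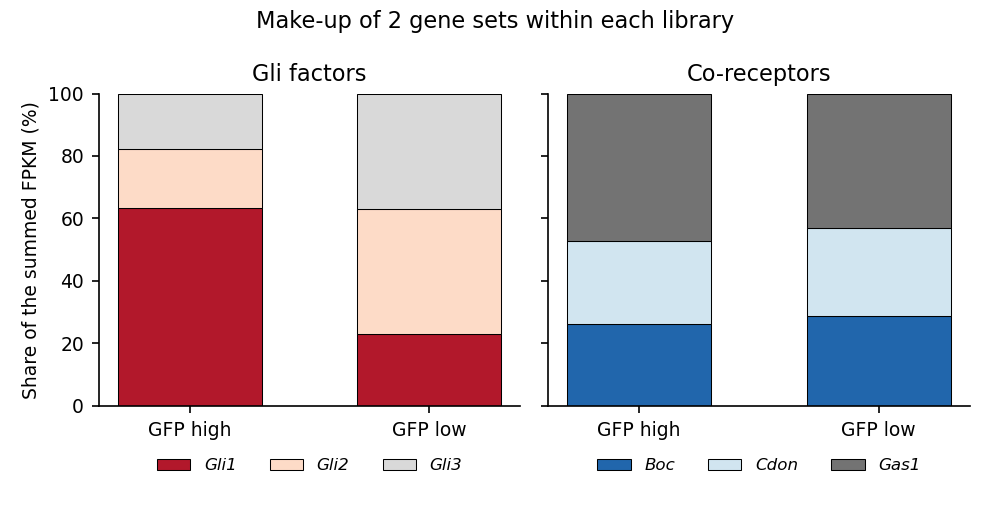
Share of the summed FPKM, in percent, held by each Gli factor (left) and by each co-receptor (right) in the GFPhigh and the GFPlow library. *Gli1* holds 63.2% in GFPhigh and 23.0% in GFPlow cells, whereas the co-receptor shares are alike, *Gas1* holding 47.2% and 43.1%.

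From the highest to the lowest FPKM, the order in GFPhigh cells was *Ptch1*, *Gas1*, *Smo*, *Gli1*, *Sufu*, *Cdon*, *Boc*, *Gli2* and *Gli3*. In GFPlow cells it was *Smo*, *Gas1*, *Boc*, *Cdon*, *Sufu*, *Ptch1*, *Gli2*, *Gli3* and *Gli1*. *Ptch1* went from rank 1 to rank 6 and *Gli1* from rank 4 to rank 9, and no other gene moved by more than 4 ranks. Without replicates, neighbors such as *Cdon* and *Boc* or *Gas1* and *Smo* cannot be put in order. Among the 10016 entries with at least 5 FPKM in both libraries, those nearest to *Ptch1* by the distance between their 2 log2 FPKM values were *Elf3* (115 and 38.3 FPKM, distance 0.03), *Csrp2* (98.0 and 39.6, distance 0.21) and *Plin2* (134 and 36.7, distance 0.26). Nearest to *Gli1* were *Sptlc3* (56.1 and 13.2 FPKM, distance 0.08), *Lgi2* (56.0 and 14.6, distance 0.12) and *Lrrc16a* (48.9 and 16.3, distance 0.29). This likeness rests on 2 libraries.

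*Hhip*, a membrane protein that sequesters Hh ligand and is itself a target in many tissues, differed in the direction opposite to *Ptch1*. It had an FPKM of 1.09 in GFPhigh cells and 19.98 in GFPlow cells, 18.3-fold higher in the latter. The ratio of *Ptch1* to *Hhip* was therefore 103 in GFPhigh cells and 1.92 in GFPlow cells. *Lrp2*, which encodes a large endocytic receptor that binds SHH, was under 5 FPKM in both.

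Among 8 genes of ligand production and release, 2 reached 5 FPKM and 1 was called, higher in GFPhigh cells, against 9.48% of all entries. *Shh* had an FPKM of 20.7 in GFPhigh cells and 0.84 in GFPlow cells, a 24.7-fold difference. *Disp1*, which encodes the transporter that releases the lipid-modified ligand, had an FPKM of 11.9 and 14.6. *Dhh*, singled out after its values were seen, is a ligand made by Schwann cells and was under the minimum, at 0.33 and 4.57 FPKM.

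Of 25 genes that relay the signal between Smoothened and the Gli factors or set their turnover, 24 had an entry and 23 reached 5 FPKM. None was called higher in GFPhigh cells, against 9.48% of all entries, and 3 of 23 were called higher in GFPlow cells, against 8.90%. The median log2 ratio of the 23 was −0.07 and the range −0.87 to 0.33, beside a median of −0.20 for the 7 transduction genes. *Arrb2*, a beta-arrestin, had an FPKM of 16.1 in GFPhigh cells and 29.3 in GFPlow cells (1.82-fold). *Evc*, which with *Evc2* and *Iqce* encodes parts of the ciliary EvC complex through which Smoothened acts, had an FPKM of 24.4 and 39.6 (1.62-fold), and *Iqce* of 18.3 and 28.8 (1.57-fold). *Evc2* was just short of the threshold, at 20.5 and 30.4 FPKM, and *Efcab7*, the remaining part of the complex, was level at 16.9 and 17.0. On the TPM scale 5 were called higher in GFPlow cells, against 11.4% of all entries, *Evc2* and *Rab23* being added.

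Genes reported as Hh targets in other tissues did not share one direction. Of 16 listed, 14 had an entry and 11 reached 5 FPKM. Of the 11, 1 was called higher in GFPhigh cells, against 9.48% of all entries, and 3 in GFPlow cells, against 8.90%. *Foxa2* was called higher in GFPhigh cells, at 6.98 and 2.66 FPKM. With the minimum asked of both libraries, *Foxa2*, *Shh* and *Hhip* were not called. Called higher in GFPlow cells were, besides *Hhip*, the cell cycle gene *Ccnd1* (44.9 and 139.8 FPKM, 3.11-fold) and the Notch ligand *Jag2* (105 and 178 FPKM, 1.69-fold). The other 7 were not called. Their number includes *Bmp4* at 22.6 and 20.9 FPKM and *Sox9* at 35.0 and 25.9. Of the 7, only *Ccnd2* (130 and 172 FPKM) and *Bcl2* (6.22 and 8.32) had the higher value in GFPlow cells. Of 8 *Zic* and *Glis* genes, relatives of the Gli factors, only *Glis2* reached 5 FPKM, at 16.9 in GFPhigh and 23.6 in GFPlow cells, and it was not called.

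Most fibroblast and Schwann cell markers were higher in GFPlow cells, and most taste cell markers were higher in GFPhigh cells. The sort itself was visible in *Sox2*, at 112 FPKM in GFPhigh and 59.0 in GFPlow cells. All 9 epithelial markers were well expressed in both, between 166 and 9667 FPKM in GFPhigh and between 86.8 and 10422 in GFPlow cells, and 7 of 9 were higher in GFPlow cells, with a median log2 ratio of −0.37. *Epcam* was called higher in GFPhigh cells (1.91-fold) and *Itgb4* in GFPlow cells (1.57-fold). The summed FPKM of the 9 was 1.27-fold higher in GFPlow cells. Of 11 fibroblast markers, 7 reached 5 FPKM. Of these, 6 were called higher in GFPlow cells, against 8.90% of all entries, and none in GFPhigh cells. The summed FPKM of the 11 was 529 in GFPhigh and 2482 in GFPlow cells, a 4.69-fold difference. The markers themselves ranged from 1.05 to 193 FPKM in GFPhigh and from 0.50 to 966 in GFPlow cells, and none was at 0. *Col3a1* (193 and 966 FPKM), *Vim* (96.0 and 645) and *Dcn* (143 and 504) made up most of the sum, whereas *Pdgfra* was level at 1.42 and 1.46 FPKM, and *Thy1* (19.6 and 16.2) and *Twist2* (2.27 and 0.50) were not called and had the higher value in GFPhigh cells. Of 5 Schwann cell markers, 4 were called higher in GFPlow cells, against 8.90% of all entries. The summed FPKM of the 5 was 67.2 and 252, with none at 0. Connective tissue is also a site of Hh reception, and the part of these cells in the levels of the 9 genes was not tested. Of 9 taste cell markers, 6 reached 5 FPKM. Of these, 5 were called higher in GFPhigh cells (*Krt8*, *Krt19*, *Shh*, *Prox1* and *Lgr5*), against 9.48% of all entries, and none in GFPlow cells. *Krt18* was not called (99.4 and 75.8 FPKM). *Pou2f3* (3.44 and 3.58 FPKM), *Trpm5* (0.35 and 0.27) and *Snap25* (0.33 and 0.07) were under 5 FPKM in both. The summed FPKM of the 9 was 309 and 159.99, most of it from *Krt18* and *Krt19* (141 and 65.3). *Shh* is also in the ligand list. Markers of endothelial cells (summed FPKM 30.5 and 22.7), leukocytes (14.8 and 16.5, with *Cd3e* at 0 in GFPhigh cells) and muscle (17.6 and 16.6) were low in both populations. Among these, *Pecam1* (5.31 and 2.38 FPKM) and *Tnnt3* (8.58 and 5.05) were called higher in GFPhigh cells and none in GFPlow cells.

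A promoter of *Ptch1*, the target gene for which the RefSeq promoter table holds a sequence, is shown beside that of *Gli2* from the transduction group. The *Ptch1* window lies inside the gene, which reaches to 63573598 and has 10 annotated transcripts. Any other *Ptch1* start, and sequence further than 250 bases before this start, were not examined. Whether *Ptch1* has Gli sites elsewhere was therefore not tested. Each runs from 250 bases before to 50 bases after the start of transcription on GRCm38.p6, at chr13:63565686-63565985 (minus strand) and chr1:119053570-119053869 (minus strand). Capitals mark CCACCC or its reverse complement GGGTGG, the core of the Gli binding site.
Ptch1: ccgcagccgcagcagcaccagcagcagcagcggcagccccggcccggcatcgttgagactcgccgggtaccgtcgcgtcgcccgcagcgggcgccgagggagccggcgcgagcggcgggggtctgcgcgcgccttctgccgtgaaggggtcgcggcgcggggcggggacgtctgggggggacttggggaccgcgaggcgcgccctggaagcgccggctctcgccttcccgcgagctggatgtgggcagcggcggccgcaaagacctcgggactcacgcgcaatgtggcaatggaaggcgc
Gli2: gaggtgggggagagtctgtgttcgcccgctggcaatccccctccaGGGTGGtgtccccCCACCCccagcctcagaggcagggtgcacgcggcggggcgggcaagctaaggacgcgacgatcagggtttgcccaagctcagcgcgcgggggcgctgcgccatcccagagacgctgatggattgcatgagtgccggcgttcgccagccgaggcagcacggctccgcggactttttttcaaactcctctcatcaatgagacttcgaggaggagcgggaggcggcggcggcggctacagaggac
The whole consensus GACCACCCA, sought on both strands, was in none of the 7 member promoters in the table and in 0.253% of all 32851. The core within it was in those of *Gli2*, *Gli3* and *Smo*, 2 copies in *Gli2*, and in 31.5% of all promoters. The GC content was 76.3% for *Ptch1* and 67.3% for *Gli2*, beside a median of 52.7% over all promoters. *Gli1* and *Boc* have no sequence in the table.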

How the data were processed

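RNA from P0 lingual epithelial cells sorted by SOX2-GFP signal was measured in 1 GFPhigh and 1 GFPlow library. Single-end 50-nt reads were trimmed by the authors (Trimmomatic 0.36), aligned to mm10 (GSNAP) and summarised per gene as FPKM (Cufflinks 2.2.1). The deposited FPKM carry 2 decimals. They also deposited the ratio between the columns as a signed fold, which was not used here. The FPKM columns are named as means, with 1 library each in the labels, and were read as the value of that library.

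Members and lists were chosen with earlier results of these data known. Of 21628 entries, 21 typed as other than protein-coding in GENCODE M21 were left out, and 17 without a number in either library were not compared, which left 21590. Named genes are the 9 members, *Sox2*, list genes past the threshold and the 3 entries nearest to *Ptch1* and to *Gli1*. List genes named without passing it were chosen after their values were seen. *Mosmo*, *Foxf1* and *Foxl1* were not analysed here. *Grk2* is listed as *Adrbk1*. 1 gene of the other pathway lists is not reported here and was left out of their counts.

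Low FPKM of genes with 1 transcript lay nearest to whole reads at about 27250000 reads in GFPhigh and 32000000 in GFPlow cells, but only 51.6% and 47.9% lay within 0.15 of a whole read, so reads were not recovered and a count test was left out. If these approximate depths hold, each member value rests on about 1800 to 23700 reads, a counting error of at most 2.4%, which does not cover variation between animals or libraries. Transcript lengths were shortened by 200 bases for the depths but not for these reads. The median-ratio, epithelial and TPM scalings, pseudocounts of 1 and 0.1, minimums of 10 FPKM, 5 FPKM in both populations and none, and a 2-fold threshold were the alternatives. Python 3.11.15 with pandas 2.3.3 and numpy 2.4.6 was used, and the threshold rule was tested on simulated data.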

Additional observations from a re-analysis of the deposited data

How the results depend on the processing

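The count of genes called among the 9 was 2 under 8 of the 9 alternatives, *Ptch1* and *Gli1* each time, and 4 on the TPM scale, on which *Gli2* and *Gli3* were added on the GFPlow side. TPM shifts all log2 ratios by the same amount, and both genes lay just inside the threshold before it. Each of the 9 genes was at 13.6 FPKM or more in both libraries. The alternative FPKM minimums (10 FPKM, 5 FPKM in both populations and none) could therefore not change a call. Pseudocounts draw ratios together and could not add a call. Of 45 log2 ratios of single members under the 5 scalings and pseudocounts, 38 kept their direction and their side of the threshold, 2 passed it (*Gli2* and *Gli3* as TPM) and 5 that were never called changed sign. The difference of medians between target and transduction genes was 1.91 to 1.96 under these alternatives. A scaling adds the same amount to every log2 ratio, so only the pseudocounts could change this difference. The count of other pathway genes called was 8 as deposited, 10 as TPM and 17 without an FPKM minimum, which adds genes of low level. As deposited, 18.4% of all entries at 5 FPKM or more in either library were called. As TPM, 7.54% were called higher in GFPhigh and 11.4% higher in GFPlow cells. No share over all entries was computed without a minimum, at 10 FPKM, at 2-fold, with pseudocounts or with the median ratio of all entries. The count of other pathway genes was 5 with 5 FPKM asked of both populations, an alternative chosen after seeing the data. It leaves out *Shh*, *Hhip* and *Foxa2*. Of all entries at that minimum, 7.76% were called higher in GFPhigh and 6.32% higher in GFPlow cells. No replicate could be left out with 1 library per population. No paired analysis was possible because each population has 1 library. The lack of a replicate limits every comparison here. If the approximate depths above hold, the member values rest on at least about 1800 reads, a rough figure because reads were not recovered. The reads behind the lower values of other genes were not estimated.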
